A study of Mus musculus with 6 samples.

Results

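The 10 genes examined here are Selenop, which encodes a secreted selenium carrier, the glutathione peroxidase genes Gpx1, Gpx2, Gpx3 and Gpx4, the thioredoxin reductase gene Txnrd2, the small selenoprotein genes Selenow, Selenok and Selenom, and Lrp8, which encodes a receptor for Selenop. They were picked by gene symbol, older names included, from 18193 named genes on the array, and 18 of 45037 non-control probe sets carry their symbols. The choice was made with earlier results of the same comparison in view, so the 10 genes were in effect chosen by their differences between arrays labelled IRF2 and GFP control arrays. Their fold changes, and their side of the threshold in a test over all genes, are given as a description and not as independent evidence. All 18 probe sets lay above the intensity filter, in both groups, so no gene was lost to it.

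Total RNA was measured on 6 Affymetrix mouse arrays, 3 labelled IRF2 and 3 labelled GFP control, numbered 1 to 3 in each group. All 6 came from a single primary culture, number 3346, of iKAP cells, from a mouse model of colorectal cancer with engineered alleles, Apc among them, in the intestinal epithelium. The test cells stably carried an IRF2 open reading frame in a pLenti6.3 construct and the control cells carried GFP in that vector, and both were grown in DMEM with 5% of a tetracycline-free additive. The labels state neither whether an inducing agent was present, nor the selenium content of the medium, nor whether each array had a culture of its own, so p-values measure an array-to-array spread that may be only technical.

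The single probe set named to Irf2 read 37.0, 36.6 and 35.2 on the arrays labelled IRF2, against 65.4, 60.5 and 62.0 on the GFP control arrays. It was lower where the label gives more IRF2, and the labels give neither the species of the reading frame nor the part of the transcript probed, so the group is called "labelled IRF2" throughout. The transferrin receptor 3' to 5' signal ratio, an RNA quality measure, was 3.81 to 4.47 on the arrays labelled IRF2 and 3.61 to 3.78 on the GFP control arrays, whereas the beta-actin ratio overlapped between groups. The part of this difference in the results was not tested. Of 10 epithelial markers, 7 lay above the filter (71.4% of these passed, against 36.3% of all genes). Of the 7, 3 were lower (Cdh1, Cdh17 and Epcam, whose -0.81 came to -0.43 with its probe sets averaged). The keratin genes Krt8 and Krt18 were higher. The summed intensity of the 10 was 16030 to 16165 on the arrays labelled IRF2 against 14535 to 14686 on the GFP control arrays. Bright keratin genes dominate that sum, and Krt8 alone was at 4999 ± 114 on the arrays labelled IRF2 and 3533 ± 32.7 on the GFP control arrays.

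Selenoproteins contain selenocysteine, an amino acid that is inserted at a UGA codon which would otherwise stop translation, by means of a structured element in the mRNA and a dedicated elongation factor. Many are enzymes that use the selenium atom to reduce peroxides or disulfides. In the gut epithelium Gpx1 is general, Gpx2 is typical of crypt cells, Gpx4 protects membranes from lipid peroxides, and Gpx3 and Selenop are secreted proteins. The liver is the main source of circulating Selenop, which carries several selenocysteines per molecule and delivers selenium to cells through receptors such as Lrp8.

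The sequences around the Selenop start sites are shown first, because Selenop is the gene with by far the widest separation between the groups. RefSeq (GRCm38.p6) promoter windows of 300 bases, 250 before to 50 after a start, were found for all 10 genes (17 windows), and were searched on both strands for GAAA followed by any 2 bases and another GAAA (the core bound by interferon regulatory factors), for GTAAACA (a forkhead core, since Selenop is a known forkhead factor target in liver cells) and for TGACNNNGC (the core of the antioxidant response element). Matches are in capitals. The first window lies at chr15:3270517-3270816 and the last at chr15:3270727-3271026, both on the plus strand.
Selenop first start: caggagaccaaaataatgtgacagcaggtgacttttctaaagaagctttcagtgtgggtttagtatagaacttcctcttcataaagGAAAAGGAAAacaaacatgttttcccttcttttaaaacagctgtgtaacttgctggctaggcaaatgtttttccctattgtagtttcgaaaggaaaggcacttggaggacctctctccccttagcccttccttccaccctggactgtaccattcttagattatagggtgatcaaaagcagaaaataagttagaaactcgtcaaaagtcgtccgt
Selenop last start: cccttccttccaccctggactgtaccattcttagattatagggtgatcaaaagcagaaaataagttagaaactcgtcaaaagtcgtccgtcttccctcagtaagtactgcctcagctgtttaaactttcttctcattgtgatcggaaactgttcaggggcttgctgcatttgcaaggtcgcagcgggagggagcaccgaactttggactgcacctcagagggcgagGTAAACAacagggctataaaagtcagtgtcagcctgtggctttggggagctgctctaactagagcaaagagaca
The interferon regulatory factor core was present in the first window, at position -164 relative to the start, and again in the overlapping second window. The other 9 genes had no match to it in their windows. Of all 32851 windows of this length, 3.44% held this core, 3.65% the forkhead core and 12.4% the antioxidant core. Counted by gene, with a match in any of its windows, the shares were 3.99%, 4.05% and 14% of 27025 genes. The forkhead core stood at position -24 relative to the last Selenop start, outside the first window. The antioxidant core was matched in one Lrp8 window and in the Selenok window.
Lrp8 first start, chr4:107802635-107802934, plus strand: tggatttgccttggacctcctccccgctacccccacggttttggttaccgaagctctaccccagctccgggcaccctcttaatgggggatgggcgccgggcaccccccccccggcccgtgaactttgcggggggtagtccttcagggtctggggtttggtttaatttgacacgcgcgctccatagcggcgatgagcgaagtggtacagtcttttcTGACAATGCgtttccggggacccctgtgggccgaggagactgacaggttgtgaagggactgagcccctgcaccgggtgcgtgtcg
A match is a run of letters and not a measured binding site, and the start site in use in these cells was not measured.

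Selenop was higher on the arrays labelled IRF2. It read 111, 117 and 107 there, against 21.4, 21.9 and 20.7 on the GFP control arrays (means 111 ± 4.97 and 21.3 ± 0.559; all ± are SDs over the 3 arrays of a group). The lowest array labelled IRF2 lay far above the highest GFP control array. The difference was 5.22-fold, a log2 fold change of 2.39 with a 95% interval of 2.25 to 2.52 (SE 0.06, limma adjusted p = 1.40e-12), and it ranked as number 3 among the rises of 12795 genes tested. With 16 added to each intensity before the log, which damps changes of dim probe sets, it was 1.77. Only 1 probe set was named to Selenop, so no second reading of the transcript was at hand. In bulk RNA, more cells that express a gene and more RNA per cell cannot be told apart.

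Markers of other cells were read beside Selenop. Of 8 hepatocyte markers, 4 lay above the filter and did not pass (log2 fold changes from -0.03 to 0.09), and albumin, at 8.47 ± 1.32 on the arrays labelled IRF2 and 8.61 ± 1.17 on the GFP control arrays, lay under the filter intensity of 11.3. Summed over the 8 genes, intensities were 131 to 137 on the arrays labelled IRF2 and 126 to 135 on the GFP control arrays. The 8 myeloid markers summed to 280 to 294 on the arrays labelled IRF2 and 256 to 284 on the GFP control arrays. Of these only Cd14 passed (0.18, SE 0.06, adjusted p = 0.035), a call lost without the array labelled IRF2 of replicate 2 (0.131) or 3 (0.152), without the GFP control array of replicate 1 (0.0789) or 2 (0.137), without the intensity trend (0.12), with each probe set tested on its own (0.0509) and with probe sets averaged (0.0574; range 0.0059 to 0.152). The 8 fibroblast markers summed to 152 to 161 on the arrays labelled IRF2 and 147 to 155 on the GFP control arrays. Pdgfra was higher (0.70, but 0.36 with its probe sets averaged) and Pdgfrb lower (-0.40, adjusted p = 0.00117), a call lost with its probe sets averaged (-0.16, adjusted p = 0.0727; range 0.000253 to 0.0727), its second probe set being at 0.09. The 6 endothelial markers summed to 90.8 to 103.5 on the arrays labelled IRF2 and 98.8 to 108.6 on the GFP control arrays. Egfl7 was lower (-0.22, adjusted p = 0.0315), a call lost without the array labelled IRF2 of replicate 1 (0.0605) or 2 (0.143), without the GFP control array of replicate 3 (0.16) and without the intensity trend (0.0643; range 0.00722 to 0.16). The sums include the markers under the filter intensity, and the part of such cells in the Selenop difference was not tested.

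The 5 genes whose log2 intensities over the 6 arrays, each centred on its own mean, lay nearest to those of Selenop were Ctso (Euclidean distance 0.26), Tap2 (0.44), Car3 (0.49), Psmb9 (0.50) and Parp14 (0.55). Their log2 fold changes were 2.31, 2.06, 2.0, 2.11 and 2.06. With 6 arrays in 2 groups this measure mostly ranks genes by the size of the group difference, and it is given as a description.

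**Figure D1:**
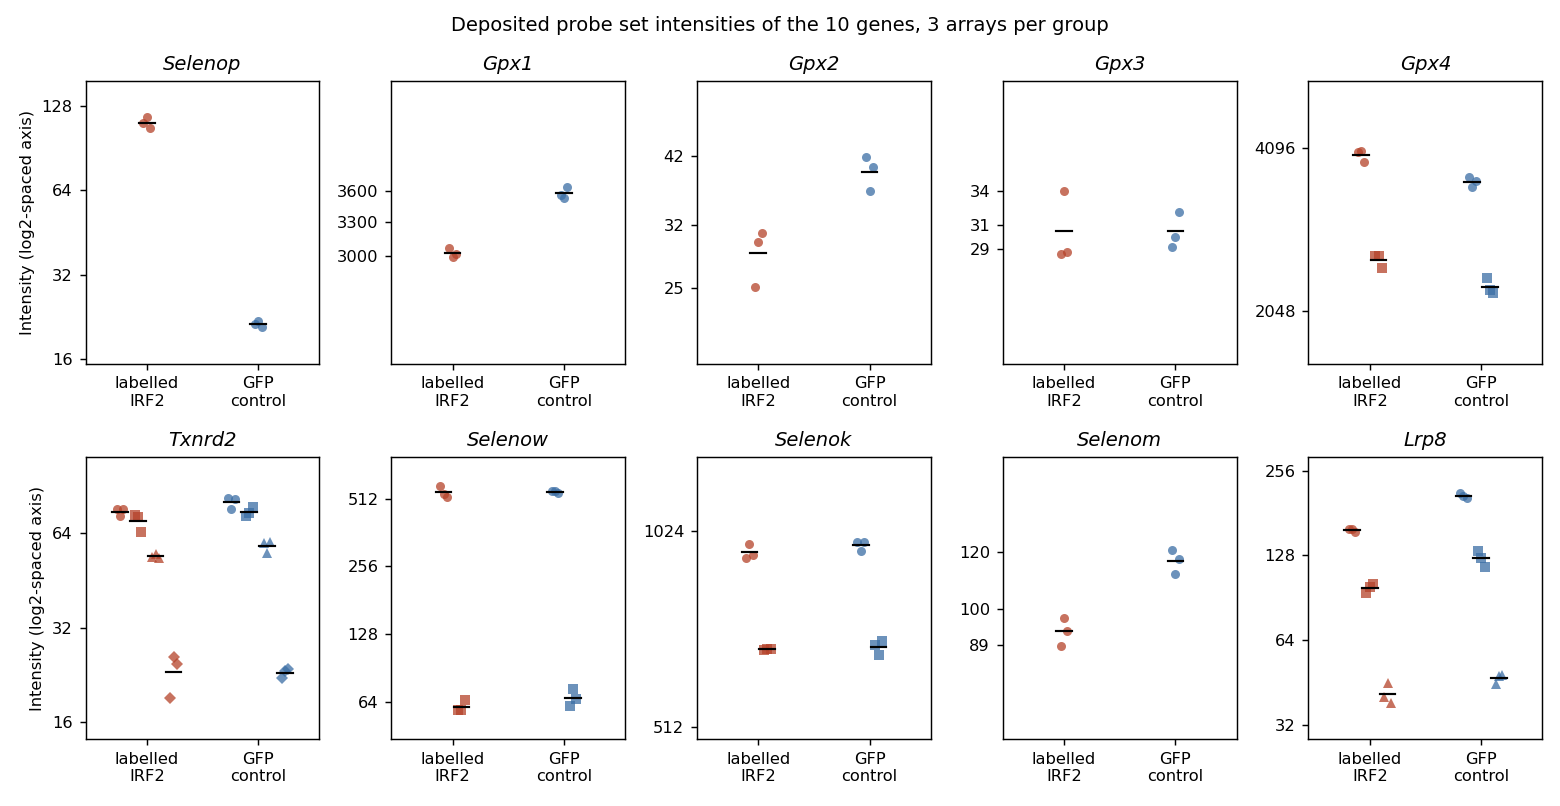
Deposited intensities of the 18 probe sets of the 10 genes on a log2-spaced axis, with the 3 arrays labelled IRF2 on the left (red) and the 3 GFP control arrays on the right (blue) of each panel; marker shapes separate probe sets of a gene, black bars are means, and each panel has its own axis range. Selenop separates the groups widely, Gpx1, Gpx2, Selenom and the brightest Lrp8 probe set lie lower on the arrays labelled IRF2, and Gpx3, Selenow and Selenok overlap.

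Among the glutathione peroxidase genes, Gpx1 and Gpx2 were lower, Gpx4 was higher and Gpx3 did not pass the test. Gpx1, the cytosolic peroxidase, read 3067, 2987 and 3020 on the arrays labelled IRF2 and 3567, 3535 and 3643 on the GFP control arrays. No array of one group reached the range of the other. The fall was 15.5%, a log2 fold change of -0.24 (SE 0.02, adjusted p = 1.44e-07). The signal was bright and the arrays of a group lay close together, so this small change stood well outside the spread.

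Gpx2, the gastrointestinal enzyme, was dim, at 25.1, 30.0 and 31.1 on the arrays labelled IRF2 and 41.8, 36.6 and 40.2 on the GFP control arrays. The groups did not overlap, although the array labelled IRF2 of replicate 1 lay apart from the other two. Its fall of 27.5% (log2 fold change -0.46, SE 0.09, adjusted p = 0.000699) was, apart from the Selenop rise, the largest change among the probe sets that stood for the 21 selenoprotein genes tested. Leaving out 1 array at a time gave log2 fold changes between -0.52 and -0.37.

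Gpx4, the enzyme that reduces lipid hydroperoxides within membranes, had 2 probe sets that gave nearly the same change. The brighter read 4038, 4041 and 3869 on the arrays labelled IRF2 and 3627, 3471 and 3556 on the GFP control arrays (log2 fold change 0.17, SE 0.02, adjusted p = 3.23e-05). The second, of a type that can bind related transcripts, read 2593, 2591 and 2460.0 on the arrays labelled IRF2 and 2356, 2240.3 and 2209 on the GFP control arrays, again 0.17 (SE 0.03, adjusted p = 0.00043 over all probe sets). In both, the groups did not overlap, and the rise was 12.1% and 12.3%. Gpx3, the plasma peroxidase, read 28.6, 34.1 and 28.8 on the arrays labelled IRF2 and 29.2, 30.0 and 32.2 on the GFP control arrays. Its groups overlapped fully, and the 95% interval of the log2 fold change, -0.18 to 0.18, leaves room for a change of the size of that in Gpx4.

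The peroxidases of the mouse that carry cysteine in place of selenocysteine served as relatives outside the selenium system. Of Gpx5, Gpx6, Gpx7 and Gpx8, Gpx7 lay under the filter and the other 3 did not pass. Gpx8, an endoplasmic reticulum enzyme, was at 661 ± 8.70 on the arrays labelled IRF2 and 647 ± 9.37 on the GFP control arrays (log2 fold change 0.03, SE 0.03, adjusted p = 0.385).

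Txnrd2, the mitochondrial thioredoxin reductase, did not pass in any of its 4 probe sets. The brightest read 76.2, 72.5 and 76.5 on the arrays labelled IRF2 and 83.1, 76.4 and 82.5 on the GFP control arrays, with one array of each group inside the other's range. Its log2 fold change was -0.10 (95% interval -0.22 to 0.02, adjusted p = 0.179), and the further probe sets gave -0.10, -0.11 and -0.01. The other family members were read for comparison. Txnrd1, the cytosolic enzyme, read 1049, 1078 and 1090 on the arrays labelled IRF2 and 1033, 1071 and 1065 on the GFP control arrays (0.02, SE 0.02, adjusted p = 0.551). Txnrd3, which also has a glutaredoxin domain, rose, at 141, 142 and 147 on the arrays labelled IRF2 and 131, 122 and 127 on the GFP control arrays (0.18, SE 0.05, adjusted p = 0.00613), and its other probe sets gave 0.21 and 0.13, of which the first passed.

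**Figure D2:**
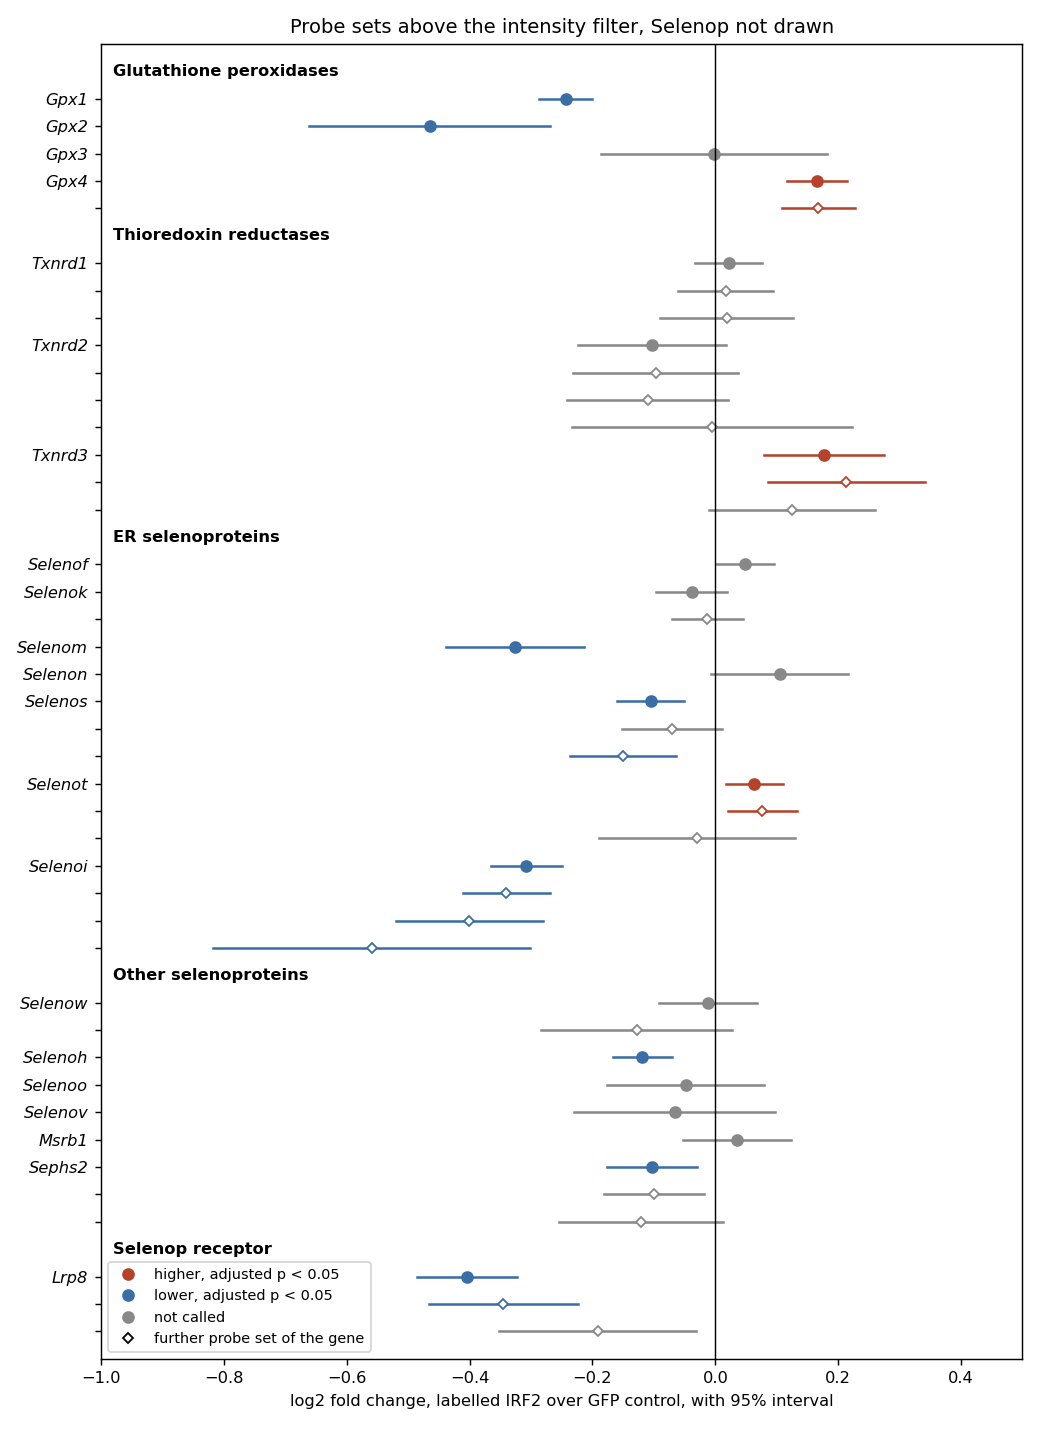
Log2 fold changes, labelled IRF2 over GFP control, of each probe set above the filter for the selenoprotein genes and Lrp8, grouped by role, with 95% intervals from the fit over all probe sets; filled circles stand for the gene, open diamonds are its further probe sets, red is higher, blue lower and grey not past an adjusted p of 0.05. Selenop, at 2.39, is not drawn; all 4 Selenoi probe sets and 2 of the 3 Lrp8 probe sets lie in the lower range past the threshold.

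Of the small selenoproteins, Selenom was lower, and Selenok and Selenow did not pass. Selenom, a thioredoxin-like protein of the endoplasmic reticulum, read 88.7, 97.0 and 93.2 on the arrays labelled IRF2 and 121, 112 and 117 on the GFP control arrays. The groups did not overlap, and the fall was 20.2% (log2 fold change -0.33, SE 0.05, adjusted p = 0.000157). Selenok, a membrane protein of the endoplasmic reticulum that takes part in protein palmitoylation and degradation, read 928, 977 and 941 on the arrays labelled IRF2 and 983, 954 and 985 on the GFP control arrays in its brighter probe set. Those groups overlapped, and the 95% interval of the log2 fold change ran from -0.09 to 0.02. Selenow, a small cytosolic redox protein, read 581, 536 and 520 on the arrays labelled IRF2 and 551, 555 and 544 on the GFP control arrays, with an interval of -0.09 to 0.06. Its dimmer probe set gave -0.13 (SE 0.07, adjusted p = 0.222 over all probe sets).

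Lrp8, the receptor that takes up Selenop in brain and testis and also binds reelin, was lower on the arrays labelled IRF2. Its brightest probe set read 159, 159 and 155 there, against 213, 209 and 205 on the GFP control arrays. No array of one group came near the other, and the fall was 24.4% (log2 fold change -0.40, SE 0.04, adjusted p = 8.09e-07). The second probe set read 94.4, 98.7 and 102 on the arrays labelled IRF2 and 133, 125 and 116 on the GFP control arrays, a change of -0.35 (SE 0.06, adjusted p = 0.000368 over all probe sets). The dimmest read 40.1, 44.9 and 38.3 on the arrays labelled IRF2 and 44.8, 47.8 and 48.1 on the GFP control arrays, and its change of -0.19 (SE 0.07, adjusted p = 0.0731) did not pass.

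Other receptors of the family were read beside Lrp8, with no test of the difference between genes. Lrp1, a large endocytic receptor, was at 68.2 ± 1.44 on the arrays labelled IRF2 and 38.7 ± 1.62 on the GFP control arrays, a rise of 0.82 on the log2 scale (SE 0.06, adjusted p = 8.88e-08). Vldlr, a close relative of Lrp8, did not pass at 0.12 (SE 0.05, adjusted p = 0.0672), but passed without the replicate 3 GFP control array (0.16, adjusted p = 0.039), with the stricter filter (0.0483) and under quantile normalization (0.0426), with a range of 0.039 to 0.262 over its alternatives. Lrp2, or megalin, through which the kidney takes up Selenop, lay under the filter in all of its probe sets.

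Counted together, 2 of the 10 genes were higher (Selenop and Gpx4), 4 were lower (Gpx1, Gpx2, Selenom and Lrp8) and 4 did not pass. Over all 12795 genes tested, 16.5% were higher, 19.8% were lower and 36.3% passed in either direction, and the 10 genes were chosen from this very comparison, so nothing is read from their count. Among their 18 probe sets, 3 were higher and 5 lower, where 13% and 15.7% of all 27022 probe sets tested were. The groups did not overlap in 6 of the 10 genes and in 46.2% of all genes. The median log2 fold change of the 10 was -0.07, against -0.0007 over all genes tested. Apart from Selenop, the sizes ran up to 0.46, and 4.11% of all genes had a change larger in size than that of Gpx2, 5.42% than that of Lrp8 and 0.0156% than that of Selenop.

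**Figure D3:**
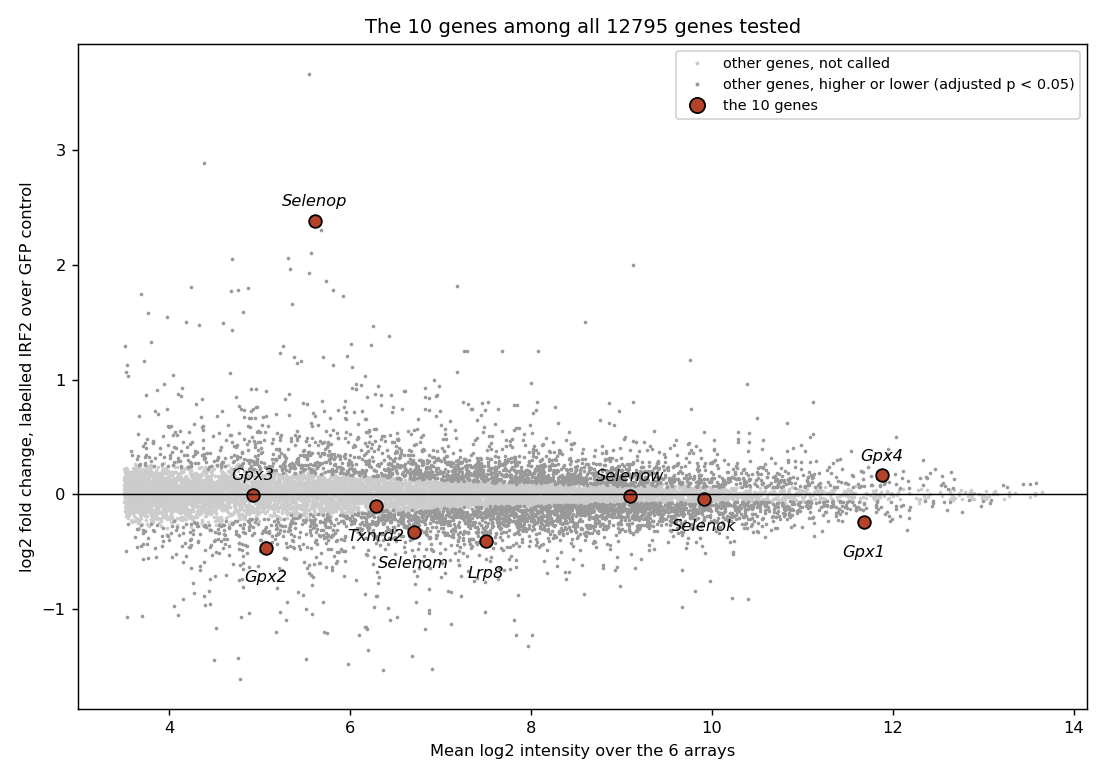
Log2 fold change, labelled IRF2 over GFP control, against mean log2 intensity over the 6 arrays for the 12795 genes tested; dark grey points passed an adjusted p of 0.05, light grey points did not, and the 10 genes are marked in red. Selenop lies at 2.39 near the top of the plot, while the other 9 genes lie between -0.46 and 0.17.

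The rest of the selenoprotein family was read from a list of the 24 mouse selenoprotein genes, 9 of them among the 10 genes. Dio3 had no probe set of its own name, and the thyroid hormone deiodinase genes Dio1 and Dio2 lay under the filter. Of the 12 further genes tested, Txnrd1 and Txnrd3 included, 2 rose, 4 fell and 6 did not pass, with a median of -0.01 (50% passed, against 36.3% of all genes). Over all 21 tested, 4 rose and 7 fell (52.4%, against 36.3% of all genes). As 9 of the 21 were chosen from this very comparison, nothing is read from that count.

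Selenoi, which makes the phospholipid phosphatidylethanolamine, fell the most of these 12. It read 488, 489 and 486 on the arrays labelled IRF2 and 594, 599.6 and 616 on the GFP control arrays (log2 fold change -0.31, SE 0.03, adjusted p = 3.42e-07). All 4 of its probe sets were lower, with changes from -0.56 to -0.31, and in each the groups did not overlap. Selenoh, a nuclear thioredoxin-like protein, read 1043, 1064 and 1047 on the arrays labelled IRF2 against 1139.5, 1134 and 1151 on the GFP control arrays (-0.12, SE 0.02, adjusted p = 0.000533). Selenos, which helps to move misfolded proteins out of the endoplasmic reticulum, read 610.0, 621 and 613 on the arrays labelled IRF2 and 669, 656 and 659 on the GFP control arrays (-0.11, SE 0.025, adjusted p = 0.0037).

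The 2 smallest changes that passed, those of Selenot and Sephs2, lost their call when some single arrays were left out. Selenot, an endoplasmic reticulum thioredoxin-like protein, rose by 0.06 (SE 0.02, adjusted p = 0.0295), and the call was lost without the array labelled IRF2 of replicate 1 (0.07, adjusted p = 0.0516) or 2 (0.06, 0.115), without the GFP control array of replicate 1 (0.05, 0.114) or 3 (0.07, 0.0641), without the intensity trend (0.162) and with its probe sets averaged (0.05, 0.456, the highest over its alternatives, of which the lowest was 0.0225). Sephs2, which makes the selenium donor for selenocysteine and is itself a selenoprotein, fell by 0.10 (SE 0.03, adjusted p = 0.025). Its call was lost without the array labelled IRF2 of replicate 1 (-0.09, 0.0893) or 2 (-0.09, 0.111), without the GFP control array of replicate 1 (-0.09, 0.087), under quantile normalization (-0.08, 0.0698) and without the intensity trend (0.0852), with a range of 0.00806 to 0.111 over its alternatives.

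The remaining 5 beside Txnrd1 did not pass. Selenof, a folding factor, was at 1792 ± 31.2 on the arrays labelled IRF2 and 1732 ± 23.4 on the GFP control arrays (0.05, adjusted p = 0.0938), and averaging its probe sets turned the sign (-0.05, adjusted p = 0.469; range 0.0606 to 0.469). Selenon, which is tied to muscle calcium handling, differed by 0.10 (adjusted p = 0.133) and passed without the GFP control array of replicate 1 (0.15, adjusted p = 0.0308; range 0.0308 to 0.432). Msrb1, a methionine sulfoxide reductase, Selenoo, a mitochondrial AMP-transferring enzyme, and Selenov differed by 0.04, -0.05 and -0.07, with adjusted p of 0.561, 0.585 and 0.556.

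Selenoprotein mRNAs are known to differ in how readily they are lost when selenium is short: Gpx1, Selenow and Selenoh are among the sensitive ones, and Gpx4 and Txnrd1 among the well kept ones. This grouping was applied after the values were seen. The log2 fold changes were -0.24, -0.01 and -0.12 for Gpx1, Selenow and Selenoh, and 0.17 and 0.02 for Gpx4 and Txnrd1. Gpx1 and Selenoh fell while Selenow, of the same class, did not pass. Only these genes were placed in a class, and which genes to place was also settled after the values were seen. Gpx2, which had the largest fall of the selenoproteins tested (-0.46), was not placed. Neither was Msrb1, which did not pass (0.04), nor the rest of the family, so no pattern is read from the genes placed. Selenium was not measured, and its part in these values was not tested.

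Of 11 genes of selenocysteine synthesis, insertion and recycling, 3 rose, 1 fell (Sephs2, above) and 7 did not pass, with a median of 0.02 (36.4% passed, against 36.3% of all genes). Sepsecs, which converts the tRNA-bound serine derivative to selenocysteine, was at 60.2 ± 2.91 on the arrays labelled IRF2 and 48.9 ± 3.04 on the GFP control arrays (log2 fold change 0.30, SE 0.07, adjusted p = 0.00249). Its second probe set did not pass (0.04, SE 0.08, adjusted p = 0.748 over all probe sets), and the average of both gave 0.17 (adjusted p = 0.0312; range 0.00104 to 0.0312). Scly, which frees selenium from selenocysteine for reuse, was at 58.6 ± 1.22 on the arrays labelled IRF2 and 48.3 ± 0.773 on the GFP control arrays (0.28, SE 0.06, adjusted p = 0.00167). The second, dim Scly probe set did not pass (0.16, SE 0.13, adjusted p = 0.416 over all probe sets). The average of both gave 0.22 (adjusted p = 0.0496), and over the alternatives the adjusted p ran from 0.00129 to 0.0496. Secisbp2l, a relative of the factor that binds the insertion element, rose by 0.11 (adjusted p = 0.0255), a call lost without the array labelled IRF2 of replicate 1 (0.10, 0.0808) or 3 (0.09, 0.112), without the GFP control array of replicate 1 (0.08, 0.108), without the intensity trend (0.104) and with its probe sets averaged (0.07, 0.373; range 0.0086 to 0.373). The binding factor gene Secisbp2 and the elongation factor gene Eefsec, at -0.13 (SE 0.05, adjusted p = 0.0743) and -0.02 (SE 0.05, adjusted p = 0.803), did not pass.

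Further lists described the surroundings of these enzymes. Of 11 genes of glutathione supply, iron and lipid peroxidation, 4 fell and the other 7 did not pass (36.4% passed, against 36.3% of all genes). Gsr, which regenerates the glutathione that the peroxidases consume, was at 948 ± 18 on the arrays labelled IRF2 and 1181 ± 9.63 on the GFP control arrays (log2 fold change -0.32, SE 0.02, adjusted p = 5.62e-08). The glutamate-cysteine ligase subunit genes Gclc and Gclm fell by 0.29 and 0.28 on the log2 scale, and the transferrin receptor gene Tfrc by 0.17. The second Gclm probe set had overlapping groups and did not pass (-0.20, SE 0.07, adjusted p = 0.0651 over all probe sets). The second Gclc probe set (-0.25) and the further Tfrc probe sets (-0.27 and -0.34) were lower and passed. The cystine transporter gene Slc7a11, at 0.002 (SE 0.06, adjusted p = 0.985), and the lipid-remodelling gene Acsl4, at -0.07 (SE 0.04, adjusted p = 0.206), did not pass in their brightest probe sets. The second Slc7a11 probe set gave -0.13 (SE 0.06, adjusted p = 0.148 over all probe sets). The second Acsl4 probe set gave -0.04 and did not pass. Its dimmest was lower (-0.21, SE 0.05, adjusted p = 0.00454 over all probe sets), with groups that did not overlap.

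Of 11 peroxiredoxin, thioredoxin, methionine sulfoxide reductase, superoxide dismutase and catalase genes tested, 3 rose and 3 fell (54.5% passed, against 36.3% of all genes). The list held 16 genes, of which 3 had no probe set of their own name and 2 lay under the filter. Of the peroxiredoxins only Prdx2 and Prdx3 were tested. Txn1, the cytosolic thioredoxin that thioredoxin reductases keep reduced, fell by 0.10 on the log2 scale (SE 0.02, adjusted p = 0.000112). Sod1, a superoxide dismutase, also fell by 0.10 (SE 0.02, adjusted p = 0.00138), but averaging its probe sets gave -0.06 and an adjusted p of 0.245 (range over its alternatives 0.000384 to 0.245). Msrb3 and Msrb2, methionine sulfoxide reductases without selenium, rose by 0.25 (SE 0.06, adjusted p = 0.00227) and 0.33 (SE 0.08, adjusted p = 0.00554). The Msrb2 groups overlapped, and its call was lost without the intensity trend (adjusted p = 0.0555; range 0.00015 to 0.0555). The remaining calls were Cat, or catalase, at 0.21 (SE 0.06, adjusted p = 0.0155) and Sod2, the mitochondrial superoxide dismutase, at -0.08 (SE 0.03, adjusted p = 0.0303), both named after their values were seen and not run under the alternatives.

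Of 8 endoplasmic reticulum partners of selenoproteins tested, 2 fell (25% passed, against 36.3% of all genes). Vcp, the segregase that works with Selenos and Selenok, fell by 0.09 (SE 0.02, adjusted p = 0.00107; 0.0589 without the intensity trend, range 0.000449 to 0.0589). Zdhhc6, the palmitoyltransferase partner of Selenok, fell by 0.12 (SE 0.04, adjusted p = 0.0159), a call lost without the array labelled IRF2 of replicate 1 (-0.10, 0.0701) or 2 (-0.10, 0.0805), without the GFP control array of replicate 3 (-0.10, 0.0928), under quantile normalization (0.0502), without the intensity trend (0.0855) and with its probe sets averaged (-0.05, 0.519; lowest 0.00327). Derl1, at 0.08 (SE 0.03, adjusted p = 0.0726), passed without the GFP control array of replicate 2 (0.10, 0.0223), and Syvn1, at 0.08 (SE 0.04, adjusted p = 0.153), without that of replicate 1 (0.12, 0.0454). Both also passed with their probe sets averaged, and Derl1 under quantile normalization. Their adjusted p ran from 0.0223 to 0.273 and from 0.0454 to 0.36 over the alternatives. Among selenium-handling genes outside this system, Selenbp1 and Inmt lay under the filter and Cth, a cysteine-producing enzyme, differed by -0.07 (SE 0.08, adjusted p = 0.555).

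**Figure D4:**
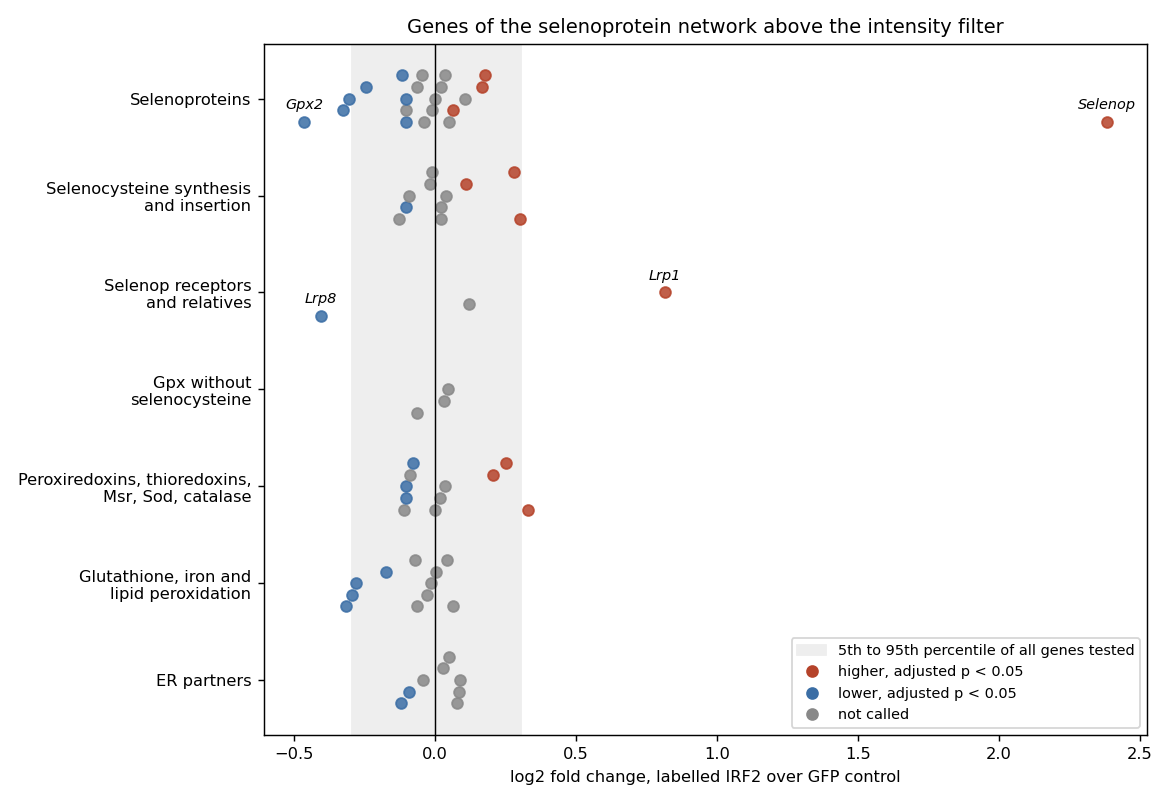
Log2 fold changes, labelled IRF2 over GFP control, of the genes above the filter in 7 lists around the selenoproteins, one row per list with points spread vertically for legibility; red is higher, blue lower and grey not past an adjusted p of 0.05, and the shaded band spans the 5th to 95th percentile of all genes tested (-0.30 to 0.30). Selenop at 2.39 and Lrp1 at 0.82 lie far to the right of the band, and Gpx2 and Lrp8 to the left of it. Selenom, Gsr and Selenoi lie just past its left edge and Msrb2 just past its right edge, without a name in the plot.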

How the data were processed

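Affymetrix arrays of 6 samples were used, as a table of probe set values. The values are linear intensities (2.59 to 14181, with no missing value) that the authors processed and deposited; the submitters' processing notes list MAS5 without a role or version, and no source used here gives the scaling. Array medians lay between 18.2 and 18.7, and no scaling was added. Detection calls and scanner values were not used here. Gene symbols came from the platform annotation held by GEO, updated through RefSeq (GRCm38.p6): 34945 had 1 symbol, 932 several and 9160 none.

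For each gene the probe set with the highest mean log2 intensity over the 6 arrays stood for it, and genes at or under the 40th percentile of non-control probe sets (11.3) were left out, leaving 12795. The log2 values went into limma 3.58.1 (lmFit, then eBayes with an intensity trend, in R 4.3.3) with group as the only term and 4 residual degrees of freedom, and two-sided p-values had Benjamini-Hochberg adjustment over all genes tested and a threshold of 0.05. A second fit took each of 27022 probe sets on its own, and its p-values are those given for further probe sets. Log2 fold changes are arrays labelled IRF2 over GFP control arrays. Precision is limited by having 3 arrays a group; the within-group SD had a median of 0.0671 on the log2 scale. The fit was tested on simulated data in 5 runs. It recovered 35.6% of log2 changes of 0.2, 86.1% of those of 0.5 and 98.8% of those of 1, and 2.9% of its calls were false. A gene that did not pass may thus still differ by about 0.2. Far fewer genes were changed in the simulation than passed in the data, so the recovery there may differ. The alternatives were 16 added before the log, no filter, a stricter filter (60th percentile), quantile normalization, the mean of a gene's probe sets, each probe set on its own, no intensity trend, robust variance, the replicate number as a block, and each array left out in turn.

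Named genes are all members, all selenoproteins and up to 4 genes with the smallest p of each further list; Secisbp2, Eefsec, Slc7a11 and Acsl4, and Cat, Sod2 and the markers, were added from the lists after their values were seen. The members and lists were chosen with earlier results of these data known.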

Additional observations from a re-analysis of the deposited data

How the results depend on the processing

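The 6 called genes of the 10 kept their direction and call under every alternative run, and the other 4 stayed uncalled (149 combinations of gene and setting; Gpx3 lay under the stricter filter). Selenop ranged from 1.77, with 16 added before the log, to 2.42. Of the 10 genes, 2 were higher and 4 lower under every alternative, with 2 to 2 and 4 to 4 when 1 array was left out. Over the selenoprotein list the counts were 3 to 4 higher and 6 to 7 lower, also with 1 array left out. Over all genes the counts ran from 1772 to 2302 higher and from 2015 to 2537 lower; leaving out 1 array gave 1772 to 1982 and 2075 to 2478. Of the 21 selenoprotein genes tested and Lrp8, 3 (Selenot, Sephs2 and Selenon) changed sides in some setting, as given beside their values, and no called change reversed. The labels do not say whether replicate numbers pair the arrays. Same-numbered arrays had correlations of deviations of 0.072, -0.076 and -0.00077, and differently numbered arrays from -0.11 to 0.11. Deviations centred within 3 arrays a group cannot decide whether arrays were handled in pairs. With the replicate block the counts were 2141 higher and 2537 lower, and 2 and 4 among the 10 genes. Among the probe sets that stood for the 10 genes, the dim ones of Gpx2 and Gpx3 had the widest intervals.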
